A study of Mus musculus with 56 samples.

Results

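The motile axoneme is the microtubule core of cilia and sperm flagella, and 39 mouse genes that build it were examined here as a named group, out of 53379 genes in the count table. The members were taken by gene symbol and fall into 9 roles, namely 5 outer arm and 9 inner arm dynein heavy chains, 4 dynein intermediate and light chains, 3 docking and attachment factors, 4 radial spoke head proteins, 3 ruler and nexin-dynein regulatory proteins, 5 central apparatus proteins, 2 dynein tether proteins and 4 tektins. All 39 were found in the table, and all 39 passed the filter on low counts in the region comparisons. The study sequenced stranded total RNA from the male tract of C57BL/6 mice at 3 and 21 months of age. It sampled 7 regions, namely testis and vas deferens, the efferent ductules that lead out of the testis, and 4 stretches of epididymis from the initial segment through caput and corpus to the cauda, with 4 libraries per region and age and 56 in all. All groups were of this strain, no treatment is given in the labels, and region and age were the factors. The question for these genes was which are shared by testis and efferent ductules, which belong to 1 of them, and how the levels stood over the 7 regions and 2 ages.

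Axonemal dyneins are motors that sit as outer and inner arms on microtubule doublets and slide them against each other to bend a cilium or flagellum. Radial spokes, the central apparatus and the nexin-dynein regulatory complex control when each motor works. In the male tract, spermatids in the testis build flagella, whereas the efferent ductules carry multiciliated epithelial cells whose beating cilia stir the luminal fluid. The long stereocilia of the epididymis and vas deferens are actin-based and hold no axoneme. Genes of motile cilia are known targets of RFX factors, which bind the X-box, and of the forkhead factor FOXJ1.

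The X-box letters are shown here because they are the element by which axonemal promoters are best known. Promoter windows from RefSeq on GRCm38.p6, 250 bases before to 50 after a gene's start, were matched to 34 of the 39 members; Dnah3, Armc4, Rsph1, Rsph4a and Cfap54 were without a window. Searched on both strands, the X-box, here GT, 2 free bases, CC, 3 free bases, G, 1 free base and AAC, occurred in 6 of the 34 members, or 17.6%, against 2.49% of 27025 genes with a window. The matches stand in capitals within the following stretches, each read on the strand of its gene.
Ccdc114, chr7:45924185-45924214, plus strand: ccttattggccccttGTCTCCCCAGTAACc
Hydin, chr8:110266916-110266976, plus strand: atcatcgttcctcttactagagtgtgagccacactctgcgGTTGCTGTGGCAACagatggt
Ccdc151, chr9:22002635-22002708, minus strand: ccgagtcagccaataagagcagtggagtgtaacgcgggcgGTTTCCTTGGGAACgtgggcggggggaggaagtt
Dnah17, chr11:118129325-118129418, minus strand: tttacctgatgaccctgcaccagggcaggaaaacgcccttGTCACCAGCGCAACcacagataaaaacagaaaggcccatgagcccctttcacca
Cfap44, chr16:44394732-44394798, plus strand: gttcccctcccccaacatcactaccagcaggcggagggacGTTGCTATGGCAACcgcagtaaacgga
Tekt4, chr17:25471390-25471483, plus strand: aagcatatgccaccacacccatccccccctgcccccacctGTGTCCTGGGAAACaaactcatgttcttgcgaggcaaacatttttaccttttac
Tekt4, chr17:25471550-25471603, plus strand: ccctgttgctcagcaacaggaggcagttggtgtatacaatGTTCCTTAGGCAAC
The first base of the match lay 15 bases before the RefSeq start in Ccdc114, 21 in Hydin, 27 in Cfap44 and 34 in Ccdc151, and 159 and 160 bases before it in Dnah17 and the upstream Tekt4 match. A RefSeq start need not be the outermost one, since GENCODE has a transcript of the gene starting 16975 bases further upstream in Tekt4, 1415 in Dnah17 and 143 in Ccdc114, so that these stretches lie inside the annotated gene. Of these 6 genes, 5 were shared by testis and efferent ductules in the comparisons that follow and Dnah17 was a testis gene. The forkhead letters GTAAACA occurred in Dnah17, Cfap43 and Tekt3, which is 8.82% of members against 4.05% of genes. The Cfap43 RefSeq start lay 81926 bases downstream of its GENCODE gene start, so its match, like that of Dnah17, lies inside the annotated gene. The cAMP response element TGACGTCA occurred in Dnah6 alone, 2.94% of members against 2.03% of genes. These matches are descriptions of letters in the window and were not tested for use.

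Library totals ran from 11125279 to 20561967 counts with a median of 16384049, and a level is given as CPM, the counts of a gene relative to the library total after scaling by the trimmed mean of M values (TMM). The study dissected all regions from 4 mice per age, and the labels do not say that a sample number marks the mouse. The regions of an age were therefore tested as unpaired, although they come from the same mice. The p-values set a difference against the spread between libraries, estimated in common over the groups of a fit. Some libraries stood apart. In the efferent ductules at 3 months, library 3 held more germ-cell RNA than the others, with 20 late germ-cell markers summing to 474 CPM against 108 to 125. At 21 months the efferent ductule libraries 1 and 4 differed from 2 and 3 in many genes and were the shallowest of the 4, at 11442133 and 11125279 counts against 15665064 and 16121722. Gm42418, a single gene that took many counts in several libraries, held 1.27 to 3.30% of efferent ductule counts at 3 months and 4.93 to 22.2% at 21 months, with no overlap. At 21 months the initial segment library 1 summed to 1066 CPM over the 39 members against 347 to 579 in the other 3 libraries, while 8 absorptive-cell markers of the efferent ductules summed to 642 CPM there against 358 to 424. In the caput at 3 months, library 2 had 49.7% of its counts in Gm42418, and in the cauda at 3 months library 3 stood out in 12 leukocyte markers, at 2901 CPM against a lowest library of 349.

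At 3 months most members stood high in both testis and efferent ductules and low in the ducts that follow. Summed over the 39 members, the level was 11300 to 13590 CPM in the 4 testis libraries and 5639 to 6865 CPM in the efferent ductules, which was above the 497 to 807 CPM of the initial segment and the 112 to 397 CPM of the caput, corpus, cauda and vas deferens libraries. A large part of the testis sum came from Dnah8 and Dnah17, with testis means of 3644 and 1024 CPM. In a bulk sample, fewer cells of a type and less RNA per cell cannot be told apart. A member was called where edgeR's quasi-likelihood test gave a Benjamini-Hochberg adjusted p under 0.05 and at least a 4-fold difference. Against the mean of the 5 later regions on the log2 scale, 34 members were called higher in testis, where 31.3% of the 34475 genes tested were, and none lower, where 16.8% were. Against the same later regions 34 members were called higher in efferent ductules, where 10.2% of genes were, and none lower, where 3.73% were. The median log2 difference over the members was 5.95 in the testis comparison and 4.92 in the efferent ductule comparison, beside 0.15 and 0.03 over all genes tested.

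The 2 comparisons share the later-duct libraries and were used together to sort the members. Called in both and therefore shared were 30 members, 4 were called in testis alone (Dnah8, Dnah17, Dnah7a and Rsph6a), 4 in efferent ductules alone (Dnah5, Dnah9, Dnah11 and Rsph4a), and Dnal1 in neither. Of all genes tested 4.94% were shared, 26.3% fell to testis, 5.28% to efferent ductules and 63.4% to neither. Compared directly, testis was called higher than efferent ductules for 11 members, where 29.0% of genes were, and lower for 4, where 19.9% were. The 11 were the 4 testis members and 7 of the shared members (Dnah7c, Rsph1, Rsph9 and the 4 tektins), and the 4 were the efferent ductule members. With library size alone as the scaling there were 10 higher, where 27.0% of genes were, and 6 lower, where 23.1% were, Ccdc114 and Cfap44 being added to the lower and Rsph9 lost from the higher. The other 23 shared members did not reach a 4-fold call between the organs, a pattern held by 2.47% of all genes tested. All 4 testis libraries lay above all 4 efferent ductule libraries in 14 of the 23, the reverse held in Ccdc114, Cfap54 and Cfap44, and 6 overlapped. Such separation was common, testis libraries lying above in 39.9% and efferent ductule libraries in 32% of all genes tested. At 21 months all 39 members kept their class, and 35 kept their direct call.

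**Figure D1:**
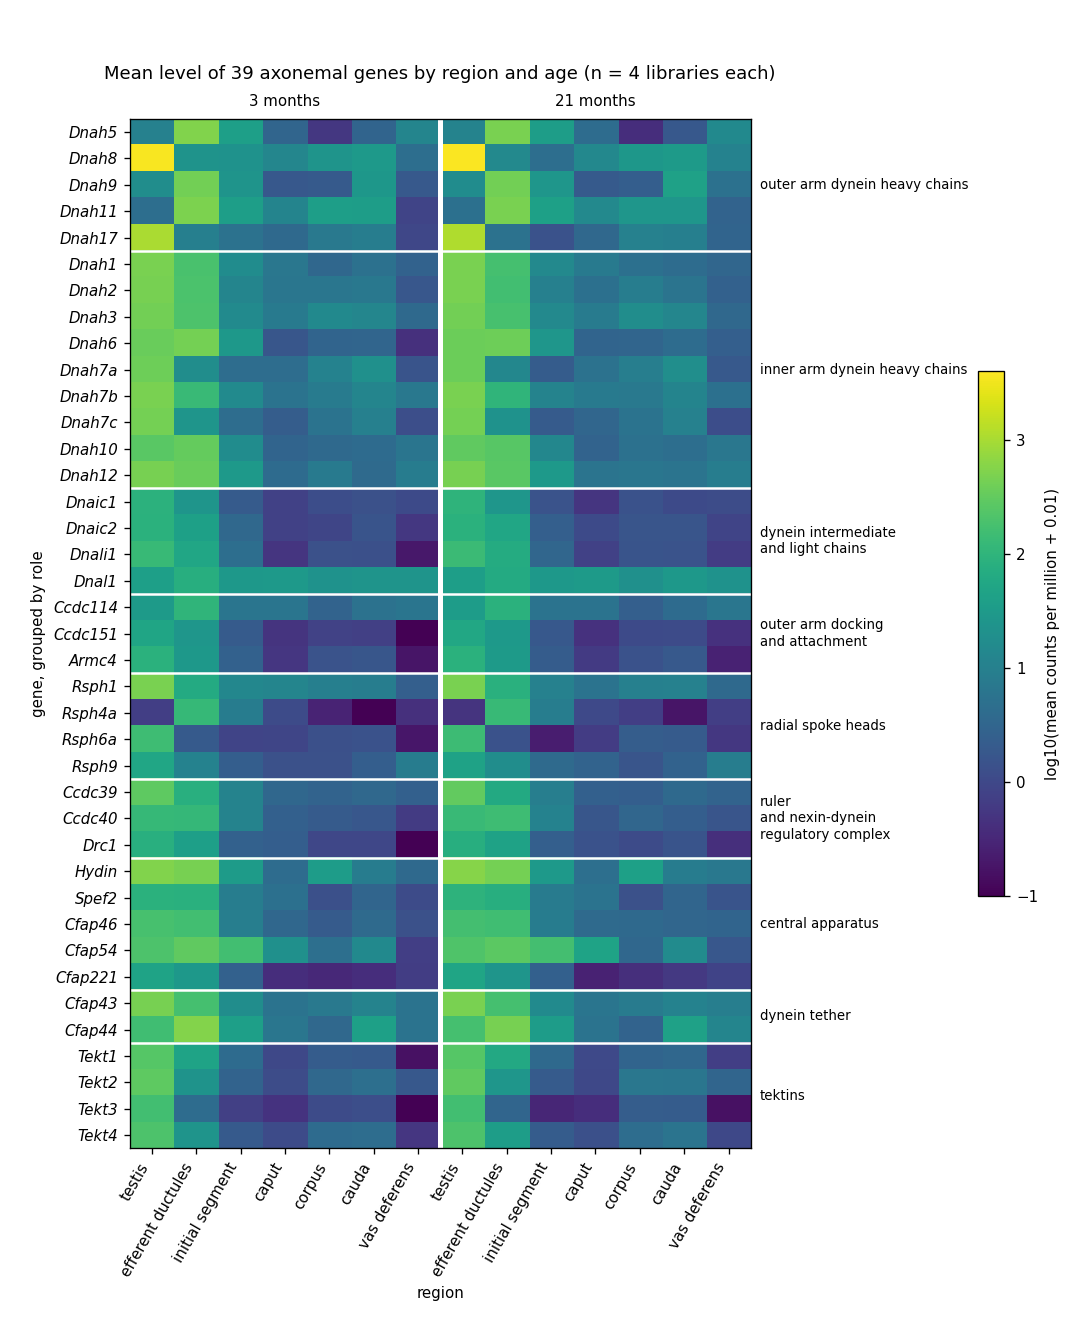
Mean level of the 39 members, as log10 of the mean CPM plus 0.01, in 7 regions at 3 months (left block) and 21 months (right block), n = 4 libraries each, with genes in rows grouped by role. The testis and efferent ductule columns are the brightest of each block for most genes, while Dnah8 and Dnah17 are bright in testis alone and Dnah5, Dnah9, Dnah11 and Rsph4a in efferent ductules alone.

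The outer arm heavy chains divided between the organs completely. Dnah8 and Dnah17, the outer arm motors of the sperm flagellum, were testis members. Dnah8 (chr17:30624354-30877365 on mm10) stood at 3948, 3452, 3112 and 4063 CPM in the testis libraries and at 17.8, 11.5, 52.8 and 11.9 CPM in the efferent ductules. The lowest testis library was far above the highest efferent ductule library, which was the library 3 with more germ-cell RNA. The log2 difference, testis minus efferent ductules, was 7.30 (SE 0.44, adjusted p = 2.75e-15, edgeR).

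Dnah17 (chr11:118021723-118130634) gave 1093, 998, 839 and 1166 CPM in testis and 5.84, 3.80, 24.1 and 4.31 CPM in efferent ductules. Its groups were as widely separated, again with the efferent ductule library 3 highest, and the log2 difference was 6.78 (SE 0.41, adjusted p = 2.69e-15). Over the alternative settings and with each library left out, the log2 difference ranged from 6.96 to 8.04 for Dnah8 and from 6.44 to 7.77 for Dnah17. Between efferent ductules and the later ducts Dnah8 differed by 0.46 on the log2 scale (SE 0.27, adjusted p = 0.165) and Dnah17 by 1.06, so neither was called there.

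Dnah5, Dnah9 and Dnah11 are the outer arm motors of epithelial cilia, Dnah5 being present along the whole cilium with Dnah11 at its base and Dnah9 towards its tip. Dnah5 (chr15:28203752-28472052) stood at 510.4, 492, 608 and 531 CPM in efferent ductules and at 10.1, 8.64, 13.5 and 10.6 CPM in testis. Dnah9 (chr11:65831282-66168551) stood at 416.5, 409, 459 and 395 CPM against 16.95, 15.65, 20.6 and 17.6 CPM, and Dnah11 (chr12:117877982-118199043) at 505, 468, 577 and 433 CPM against 4.70, 4.73, 4.80 and 4.12 CPM. For all 3 genes the efferent ductule and testis libraries were widely separated.

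Testis minus efferent ductules, the log2 differences were -5.69 for Dnah5 (SE 0.27, adjusted p = 6.77e-18), -4.61 for Dnah9 (SE 0.30, adjusted p = 1.39e-14) and -6.80 for Dnah11 (SE 0.17, adjusted p = 6.51e-24). In testis, Dnah11 was also lower than the mean of the later ducts, by a log2 difference of -1.72 that stayed inside the 4-fold limit, though above its vas deferens level of 0.687 to 1.14 CPM, and Dnah9 lay just inside it on the other side, at 1.64. With DESeq2's size factors the Dnah9 difference was 2.06 and it was called in testis as well, which would place it among the shared members.

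**Figure D2:**
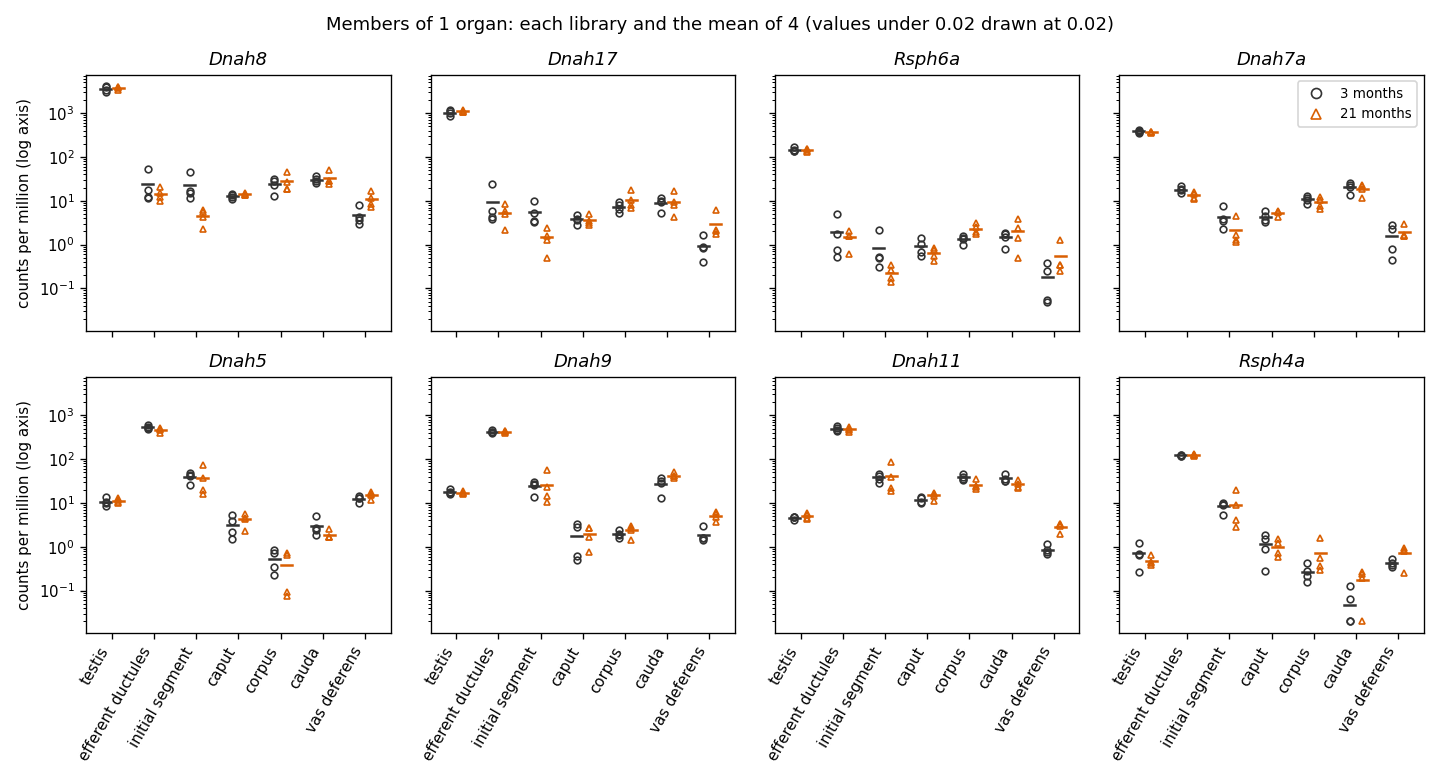
Level in CPM (log axis) of the 4 testis members (top row) and the 4 efferent ductule members (bottom row) by region, circles for 3 months and triangles for 21 months, each point a library and each bar the mean of 4 (values under 0.02 are drawn at 0.02). Dnah8 and Dnah17 stand at 839 CPM or more in every testis library and at 52.8 CPM or less in all others, and Dnah5, Dnah9 and Dnah11 stand at 395 CPM or more in every efferent ductule library.

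The inner arm heavy chains were mostly shared, with 8 of 9 called in both organs. Inner arm dyneins set the waveform of the beat. Of the 9, Dnah1, Dnah2, Dnah3, Dnah6, Dnah7b, Dnah10 and Dnah12 were shared with no direct call. Dnah6 stood at 387, 324.5, 308 and 383 CPM in testis and at 376, 387, 488 and 458.5 CPM in efferent ductules, and Dnah10 at 269, 248, 224 and 305 CPM and at 302, 319, 380.5 and 285 CPM. In both genes the groups overlapped, and the log2 differences were -0.33 (SE 0.17, adjusted p = 0.083) and -0.34 (SE 0.19, adjusted p = 0.0954). Dnah12 was close as well, at 0.31 (SE 0.19, adjusted p = 0.142), whereas Dnah1, Dnah2 and Dnah3 were higher in all 4 testis libraries, by 1.28, 1.15 and 0.94 on the log2 scale.

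The 3 Dnah7 paralogs, which lie on chromosome 1, did not behave alike. Dnah7b stood at 479, 435, 443 and 518 CPM in testis and 126, 114, 156 and 131 CPM in efferent ductules, a log2 difference of 1.79 (SE 0.13). Dnah7c stood at 439, 428, 393 and 479.6 CPM against 24.8, 19.4, 33.1 and 23.6 CPM (log2 difference 4.07, SE 0.27, adjusted p = 1.63e-14), and Dnah7a at 391, 371, 360.4 and 416 CPM against 18.2, 14.8, 21.3 and 17.7 CPM (4.37, SE 0.27, adjusted p = 3.57e-15). Per kb of exon, the mean testis levels were 23.5 CPM for Dnah7b, 30.1 CPM for Dnah7a and 34.5 CPM for Dnah7c. The efferent ductule levels were 6.60, 1.41 and 2.001 CPM. On this scale Dnah7b was the lowest of the 3 in testis and the highest in efferent ductules. The union exon length was 19980 bases for Dnah7b, 12767 for Dnah7a and 12603 for Dnah7c. In plain CPM the testis mean of Dnah7b was the highest, 468.6 against 384.6 and 434.9, so its testis rank depends on the length used. Dnah7c was still called above the later ducts in efferent ductules, at 2.71, and Dnah7a was not, at 1.57. These genes share sequence, 2.98 to 7.45% of their 150-base exon windows being identical with a paralog, so some reads could not be assigned between them and the split is uncertain to that extent.

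Intermediate and light chains, which anchor the motors or tune them, were shared in 3 of 4 cases. The intermediate chains Dnaic1 and Dnaic2 and the inner arm light chain Dnali1 were higher in all testis libraries, by log2 differences of 1.84 (SE 0.19), 1.01 (SE 0.19) and 1.22 (SE 0.17). Dnaic1 had levels of 91.7, 99.3, 77.2 and 97.6 CPM in testis and 24.4, 22.8, 29.5 and 22.2 CPM in efferent ductules, which came close to the 4-fold limit and passed it with DESeq2's size factors at 2.25. Dnal1, an outer arm light chain, was the only member in neither class.

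Dnal1 stood at 69.4 to 90.2 CPM in the efferent ductules at 3 months, 36.8 to 43.7 CPM in testis and 18.7 to 34.1 CPM in the later ducts. It was therefore above the later ducts in each organ, by log2 differences of 0.51 in testis and 1.52 in efferent ductules, but by less than 4-fold. Its vas deferens mean was 31.5% of its efferent ductule mean, where the median over the 39 members was 1.76%.

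The docking and attachment factors, which fix outer arms to the doublet, were all shared. Ccdc114 stood at 103, 102, 115 and 92.1 CPM in efferent ductules and 32.8, 34.1, 27.99 and 36.1 CPM in testis, and its log2 difference was -1.70 (SE 0.17, adjusted p = 1.50e-10). Ccdc151 and Armc4 went the other way in all libraries, at 0.90 (SE 0.20) and 1.56 (SE 0.25). These 3 genes thus had differences of both signs, each larger than the spread between libraries.

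Among the radial spoke heads a pair of paralogs went in opposite directions. Rsph4a, the head protein of epithelial cilia (chr10:33905111-33916021), stood at 115, 119.7, 128 and 125 CPM in efferent ductules and 0.687, 1.25, 0.273 and 0.647 CPM in testis. Its paralog Rsph6a (chr7:19054690-19074447), which serves the sperm flagellum, stood at 1.75, 0.527, 4.87 and 0.760 CPM in efferent ductules and 139.5, 167, 138 and 144 CPM in testis. For both genes the organs were widely separated, and the highest efferent ductule library of Rsph6a was again library 3.

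The log2 differences of the pair, testis minus efferent ductules, were -7.45 for Rsph4a (SE 0.31, adjusted p = 5.15e-19) and 6.22 for Rsph6a (SE 0.39, adjusted p = 5.42e-15). Rsph4a was the lowest in the cauda, with 3 counts over its 4 libraries against 9249 in the efferent ductules at 3 months, a ratio of 2705 with a 95% counting interval of 925 to 13119. Rsph1 and Rsph9, which both kinds of axoneme use, were shared and higher in testis. Rsph1 stood at 429, 572, 406 and 491 CPM in testis and 59.0, 68.2, 75.1 and 62.0 CPM in efferent ductules (log2 difference 2.80, SE 0.23, adjusted p = 2.09e-12), and Rsph9 at 50.6, 56.04, 55.5 and 50.7 CPM and at 11.5, 11.02, 11.3 and 9.73 CPM (2.24, SE 0.16, adjusted p = 1.33e-13).

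**Figure D3:**
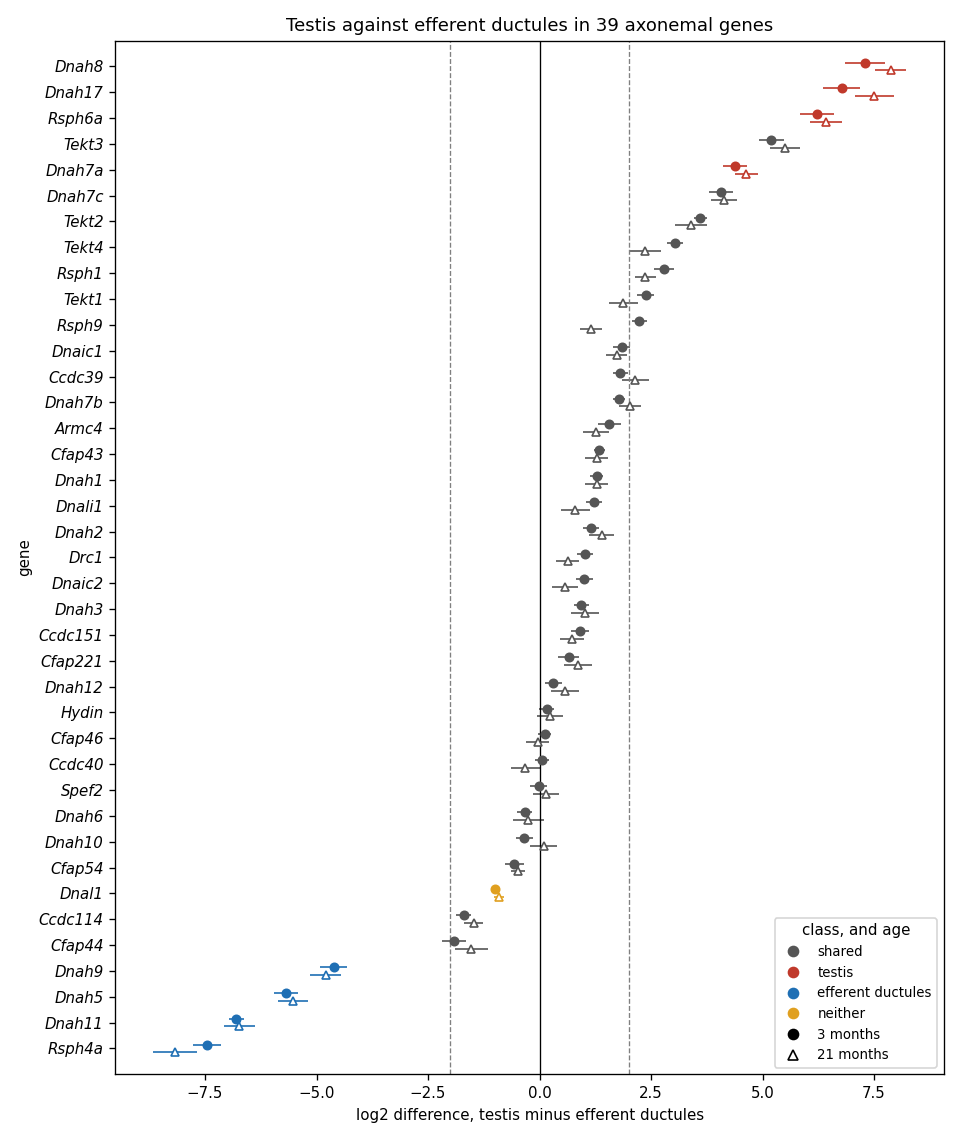
Log2 difference, testis minus efferent ductules, for the 39 members at 3 months (filled circles) and 21 months (open triangles), with standard errors from the edgeR fit and colours for the 3-month class; dashed lines mark 4-fold. Members run from Dnah8 at 7.30 to Rsph4a at -7.45, with Spef2, Ccdc40, Cfap46 and Hydin nearest to 0 at 3 months.

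The ruler, nexin-dynein regulatory and central apparatus genes were all shared, and the central apparatus had the median difference nearest to 0 of the 9 roles at 3 months. In the ruler and nexin-dynein regulatory group, Ccdc40, which with Ccdc39 sets the spacing along the doublet, stood at 118.5, 139, 93.5 and 136.5 CPM in testis and 113, 121, 119 and 101 CPM in efferent ductules, a log2 difference of 0.05 (SE 0.16, adjusted p = 0.783) with overlapping libraries. Its partner Ccdc39 was higher in testis in every library, at 1.81 (SE 0.16), as was the nexin-dynein subunit Drc1 at 1.01 (SE 0.18). The 5 central apparatus genes Hydin, Spef2, Cfap46, Cfap54 and Cfap221 had a median log2 difference of 0.12 and a range from -0.56 for Cfap54 to 0.65 for Cfap221. Hydin stood at 568, 507, 515 and 534 CPM in testis and 435, 451.5, 500.0 and 453 CPM in efferent ductules, and Spef2 at 91.6, 85.0, 79.0 and 89.0 CPM and at 79.8, 77.6, 98.4 and 83.2 CPM. The testis libraries of Hydin all lay above those of the efferent ductules, by a difference that did not pass the test (0.16, SE 0.16, adjusted p = 0.383), and those of Spef2 overlapped. The sign of these small differences changed over the alternative settings, which moved Spef2 between -0.33 and 0.38, Ccdc40 between -0.25 and 0.46, Cfap46 between -0.19 and 0.52 and Hydin between -0.15 and 0.56.

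The dynein tether genes had opposite signs. Cfap44 stood at 545, 529, 640.4 and 548 CPM in efferent ductules and 159, 158, 129 and 173 CPM in testis, a log2 difference of -1.92 (SE 0.28, adjusted p = 3.57e-07) that was the closest to a 4-fold call on the efferent ductule side. Cfap43 stood at 477, 468.5, 408 and 485 CPM in testis and 166.5, 164.5, 205 and 167 CPM in efferent ductules, a difference of 1.34 (SE 0.12, adjusted p = 1.57e-11). Both were shared, since each was at least 4-fold above the later ducts in both organs.

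The tektins, filament proteins inside the doublet, were all shared and all called higher in testis. Tekt3 differed most, at 157, 170.2, 160.0 and 148 CPM in testis and 3.50, 3.32, 7.77 and 2.53 CPM in efferent ductules (log2 difference 5.20, SE 0.27, adjusted p = 1.03e-15). Its shared class rested on the mean of the later ducts, among which the vas deferens held 0 counts at 3 months. The corpus and cauda means of Tekt3 were 26.1 and 29.8% of its efferent ductule mean at 3 months. At 21 months they were 70 and 68.8%, so there it stood little above these ducts. Tekt2, Tekt4 and Tekt1 followed at 3.61 (SE 0.15), 3.04 (SE 0.18) and 2.38 (SE 0.19). The tektin libraries of the organs did not overlap in any of the 4 genes. Exons of Tekt2 overlap those of Gm12945 on the opposite strand over 20.8% of their length, exons of Ccdc39 overlap Ttc14 over 16.9% and exons of Dnah3 overlap Lyrm1 over 10.5%, so these counts are uncertain where the strand setting of the count, not given in the sources used here, did not separate them.

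Compared per kilobase of exon, the leading genes also differed between the organs. In testis at 3 months Rsph1 led with 346 CPM per kb, followed by Tekt1 at 152, Tekt2 at 149, Dnah8 at 136, Tekt4 at 102 and Tekt3 at 90.8. In efferent ductules Cfap44 led with 67.3 CPM per kb, followed by Rsph1 at 48.1, Dnah11 and Dnah5 at 34.3 each, Rsph4a at 33.4 and Dnah6 at 32.2. On this scale Dnah8 stood above Dnah17 in testis, 136 against 63.5 CPM per kb, while the efferent ductule motors Dnah5, Dnah11 and Dnah9 lay closer together, from 26.3 to 34.3.

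The later ducts held low but unequal levels. Testis and efferent ductules were the highest 2 regions for 33 of 39 members at 3 months and for 31 at 21 months. At 3 months the exceptions were the efferent ductule members and Dnah8 and Dnah7a, for which a later duct came second. The highest later duct was the initial segment for 24 members, the cauda for 10, the caput and the corpus for 2 each, and the vas deferens for Rsph9 alone. The initial segment lies next to the efferent ductules, and its mean was 5 to 15% of the efferent ductule mean for 29 members, with a median over the 39 of 8.81%. Foxj1, the master regulator of motile ciliogenesis, stood at 430 to 482 CPM in efferent ductules, 17.4 to 28.8 CPM in the initial segment, 57.9 to 81.4 CPM in testis and 0.106 to 3.48 CPM in the other 4 regions.

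Among the shared and efferent ductule members Cfap54 departed most from this gradient, with an initial segment mean of 54% of the efferent ductule mean, and only the testis members Dnah8 and Dnah17, low in both regions, lay higher at 95.3% and 56.7%. Its libraries there read 136, 188, 153 and 166 CPM at 3 months and 189, 175, 155 and 164 CPM at 21 months, below every efferent ductule library but far above the 13.6 to 33.0 CPM of the caput and cauda at 3 months. Compared with each of the 5 later regions in turn rather than with their mean, 32 members stayed called in testis, where 23.4% of genes were, and 30 in efferent ductules, where 3.73% were, at 3 months. Cfap54 was lost from both lists (0.28 in testis and 0.85 in efferent ductules against the nearest region), Cfap44 from the testis list, and Dnah7c, Rsph9 and Tekt3 from the efferent ductule list. Rsph9 in efferent ductules, at 9.73 to 11.5 CPM, was close to its vas deferens level of 7.67 to 9.05 CPM (log2 difference 0.23, adjusted p = 0.256).

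The 4 testis members were highest among the later ducts in the cauda, where sperm are stored, with Dnah8 at 24.8 to 36.8 CPM, Dnah17 at 5.30 to 11.6 CPM, Dnah7a at 13.5 to 25.3 CPM and Rsph6a at 0.795 to 1.85 CPM at 3 months. In the same libraries the 20 late germ-cell markers summed to 755 to 1429 CPM, including Prm2, a protamine of sperm chromatin, at 104 to 182 CPM and Tnp1, a transition protein of spermatid chromatin, at 3.34 to 5.91 CPM. The part of luminal germ cells in these levels was not tested. In the vas deferens the same 4 genes lay lower, Dnah8 at 2.87 to 7.88 CPM, beside a late germ-cell sum of 22.0 to 218 CPM.

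Germ cells released from the testis pass through the efferent ductules, so each member's efferent ductule level was set beside that of germ-cell markers as a percent of the testis mean. The 20 late markers had medians of 0.367, 0.296, 1.67 and 0.337% in the 4 libraries at 3 months and the 12 meiotic markers 0.228, 0.179, 1.77 and 0.0997%. None of the 20 late markers was called higher in efferent ductules than in the later ducts, while 2 of the 12 meiotic markers were and 11 of the 12 had a positive difference, with a median of 0.78 on the log2 scale. Dnah8 stood at 0.489, 0.314, 1.45 and 0.325% of its testis mean and Dnah17 at 0.570, 0.371, 2.36 and 0.421%, within the range of the germ-cell markers in every library. Rsph6a stood at 1.19, 0.358, 3.31 and 0.516% and Tekt3 at 2.21, 2.09, 4.90 and 1.60%.

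The other 35 members lay above every marker of both lists except Dmc1 in all 4 libraries, and 30 of them lay above Dmc1 as well. Dmc1, a meiotic recombinase that is named here after its values were seen, reached 7.72 to 15.1%. At 21 months 34 members lay above every marker except Dmc1, Dnah7a being the one added to the exceptions, and 32 above Dmc1. Dnah7a stood at 3.84 to 5.54% and Dnah7c at 4.46 to 7.60% at 3 months, and the efferent ductule members at 2231% or more.

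**Figure D4:**
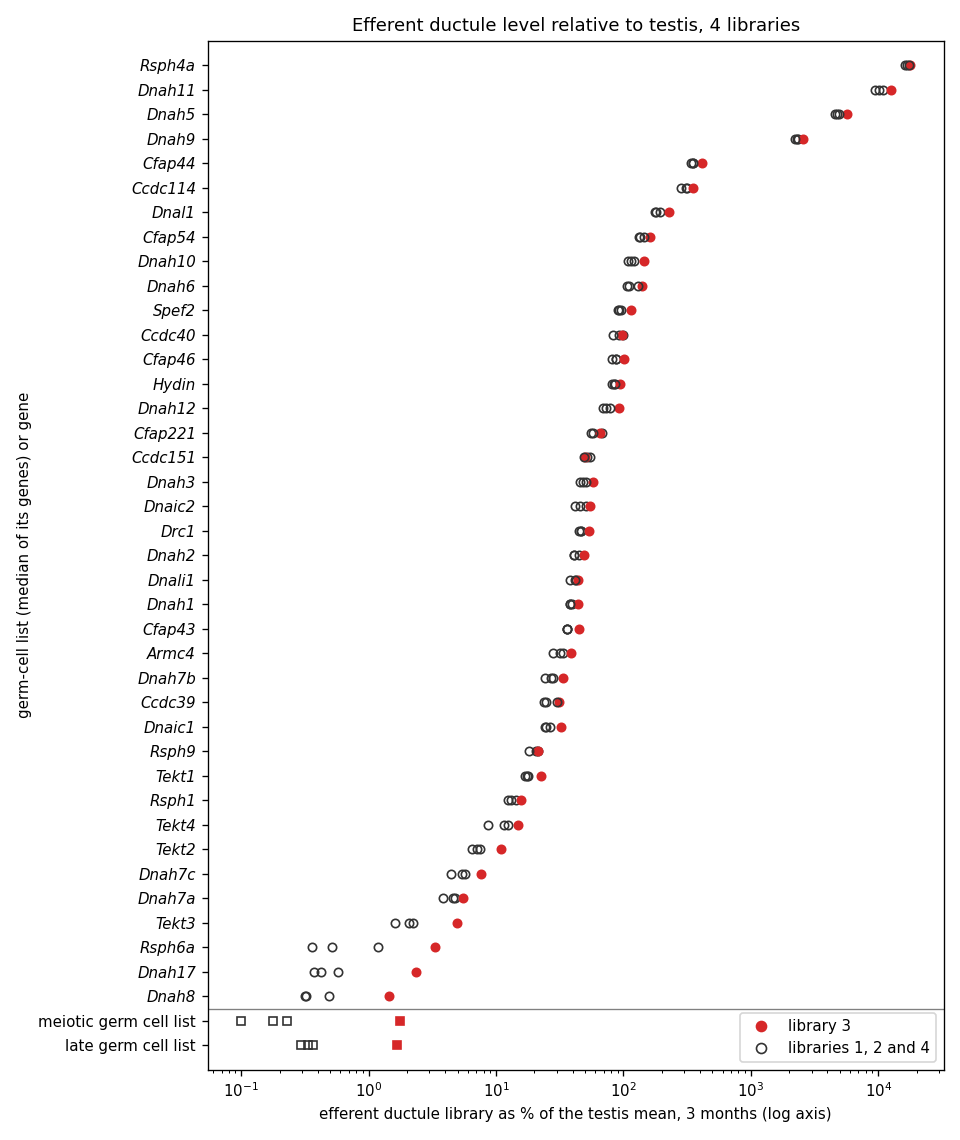
Each efferent ductule library at 3 months as a percent of the testis mean (log axis), for the medians of 2 germ-cell marker lists (squares) and the 39 members (circles), with library 3 filled in red. Dnah8, Dnah17 and Rsph6a lie at the level of the lists and move with them in library 3, and Dnah5, Dnah9, Dnah11 and Rsph4a lie at 2231% or more.

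Other axonemal genes outside the 39 were often called in efferent ductules over the later ducts, and none of these 77 genes was called lower in testis than in efferent ductules, where 19.9% of all genes were. Of 14 dynein assembly factors, 6 were called higher in testis than in efferent ductules, where 29.0% of all genes were, and 8 higher in efferent ductules than in the later ducts, where 10.2% were. The counts were 6 and 5 of 12 further dynein chains and docking factors, 9 and 24 of 29 radial spoke, nexin-dynein and central apparatus genes, and 10 and 16 of 22 microtubule inner proteins and CFAP genes. The share called higher in testis was near that of all genes in the radial spoke, nexin-dynein and central apparatus list. The highest differences, testis minus efferent ductules, in each list were in Dnah14, a further heavy chain (628 CPM against 4.22, log2 difference 7.20), Ccdc63 (6.57), Tekt5 (6.11), Spag6 (6.00), Dnaaf1 (4.34), Spag17 (4.22) and Efhc2 (4.00). Pih1d3, a dynein assembly factor, had 847 counts in the testis libraries and 1 in the efferent ductules, a ratio of 902 with a 95% counting interval of 161 to 35666. The lowest in each list were in the assembly factors Ruvbl1 (0.19) and Dnaaf5 (0.47), in Wdr78 (0.21) and Efcab1 (-0.62), in Wdr66 (-0.40) and Spef1 (-0.74), and in Cfap65 (0.22) and Cfap77 (-1.02).

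The labelled efferent ductules carried the markers of multiciliated cells. Of 18 such markers, 14 were called higher in efferent ductules than in the later ducts and none lower, with a median log2 difference of 5.23. Between testis and efferent ductules the list split, 5 being called higher in testis and 7, Foxj1 among them, higher in efferent ductules. Its summed level was 2018 to 2272 CPM in testis and 1233 to 1445 CPM in efferent ductules at 3 months. Markers of other cells also differed between efferent ductules and later ducts at 3 months. Of 8 absorptive-cell markers 7 were called higher in efferent ductules (median log2 difference 3.49), as were all 8 adipocyte markers (4.71). Of 8 initial segment and caput markers 6 were called lower (-4.93), and of 8 smooth muscle markers 2 (-1.82). None of 12 leukocyte markers was called by edgeR, 4 having an unadjusted p under 0.05. Their part in the member differences was not tested.

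Between 3 and 21 months none of the 39 members was called in testis by edgeR at an adjusted p under 0.05, and 3 had an unadjusted p under 0.05, where 10.4% of genes had. Calls were rare in testis altogether, at 0.563% of 30031 genes, so that a count of 0 among 39 was near the background. The median log2 difference, 21 minus 3 months, was 0.04 over the members and -0.01 over all genes. It ran from -0.58 (SE 0.41) for Rsph4a, which stood at 0.273 to 1.25 CPM in testis at 3 months, and -0.26 for Rsph9 to 0.20 for Dnah10. Rsph9 was the only member whose libraries did not overlap, at 50.6, 56.04, 55.5 and 50.7 CPM at 3 months and 40.4, 49.6, 45.9 and 42.2 CPM at 21 months, where 6.3% of all genes did not overlap. Dnah8 stayed at 3444 to 3888 CPM and Dnah17 at 1065 to 1181 CPM at 21 months.

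In the efferent ductules 2 members were called higher at 21 months, where 4.00% of 25944 genes were, and none lower, where 2.98% were. Dnaic2 stood at 43.8, 39.8, 47.6 and 36.4 CPM at 3 months and 46.9, 54.7, 52.2 and 59.1 CPM at 21 months, a log2 difference of 0.42 (SE 0.10, adjusted p = 0.0307). Ccdc40 stood at 113, 121, 119 and 101 CPM and at 150, 145, 139.7 and 158.5 CPM, a difference of 0.46 (SE 0.10, adjusted p = 0.0270). The libraries of Ccdc40 did not overlap between the ages while those of Dnaic2 did. Those of Rsph9 (higher at 21 months, 0.80, adjusted p = 0.0518) and Cfap44 (lower, -0.25, adjusted p = 0.158) did not overlap either and were not called, and these 3 of 39 members compare with 17.4% of all genes that did not overlap.

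Both calls were small and depended on the fit. DESeq2 in place of edgeR called 6 members higher, where 8.14% of genes were. Without Gm42418, whose share of counts was higher at 21 months in these libraries, edgeR called the same number as with it, 2 members, where 3.99% of genes were, with Ccdc40 at 0.46 and Dnaic2 at 0.43. With library size alone as the scaling no member was called higher, where 1.56% of genes were. Called lower were 10, where 18.8% were, while the median of all genes moved from -0.04 to -0.38. The TMM factors computed over all 56 libraries for the levels were 1.17 to 1.29 at 3 months and 0.987 to 1.16 at 21 months. The age fit used factors of its own, which are not given here. Without the 21-month libraries 1 and 4 there were 4 higher, where 15.1% of genes were, and 10 lower, where 12.9% were, with Dnaic2 at 0.39 and Ccdc40 at 0.35. Leaving out any of the 3-month libraries 1, 3 and 4 or the 21-month library 4 gave none, and leaving out the 3-month library 2 gave Ccdc40 alone. Leaving out the 21-month library 2 or 3 gave 4 and 5, where 4.40 and 3.36% of genes were called higher. Of the members, 23 stood higher in 21-month libraries 1 and 4 than in 2 and 3 and 9 stood lower, where 29.2% and 41.7% of coding genes did. The GC content of the exons moved with this split, with a median of 47.1% in the 23 members and 53.4% in the 9, and 46.0% and 53.3% in the coding genes; its part was not tested.

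Exon length also moved with the age difference in the efferent ductules. The median log2 difference was 0.30 for the 12 members with under 3 kb of exon, 0.10 for the 8 of 3 to 8 kb and -0.11 for the 19 over 8 kb, beside 0.23, 0.00 and -0.17 for all coding genes of those lengths. The member medians thus fell with exon length as the coding gene medians did, each lying above the coding gene median. Members with under 3 kb ran from -0.30 to 0.80. The part of exon length in the member differences was not tested. Markers of other cells moved with age in the same libraries. The 8 markers of initial segment and caput epithelium were all higher at 21 months, 4 of them called, with a median log2 difference of 4.16, and their sum went from 587 to 684 CPM to 794 to 1636 CPM. Of 12 leukocyte markers 8 were called higher, their sum going from 466 to 530 CPM to 667 to 853 CPM, and of 8 adipocyte markers 2 were called lower, their sum going from 781 to 1149 CPM to 296 to 711 CPM. Of 8 smooth muscle markers 2 were called higher, from 677 to 764 CPM to 771 to 910 CPM in sum, and of 8 absorptive-cell markers 1 was called lower, from 4049 to 4617 CPM to 3339 to 3621 CPM. No germ-cell marker of either list was called by edgeR, 2 late and 0 meiotic markers having an unadjusted p under 0.05. Of the 12 meiotic markers 11 were lower at 21 months, with a median log2 difference of -0.94, their sum going from 7.07 to 43.1 CPM, the highest being library 3, to 6.87 to 11.1 CPM. The age difference minus that in testis was negative for 11 of them too, with a median of -1.19 and 3 at an unadjusted p under 0.05, none of them called by edgeR. The part of these in the member levels was not tested. The 18 multiciliated markers did not move together, with 9 positive and 9 negative differences, a median of 0.06, 3 called higher and 1 lower. Foxj1, among the 3 called higher in the efferent ductules, went from 463, 482, 469 and 430 CPM to 623, 773.5, 908 and 704 CPM (log2 difference 0.78, SE 0.12, adjusted p = 0.00881, edgeR). The alternative settings above are given for the members and not for Foxj1.

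**Figure D5:**
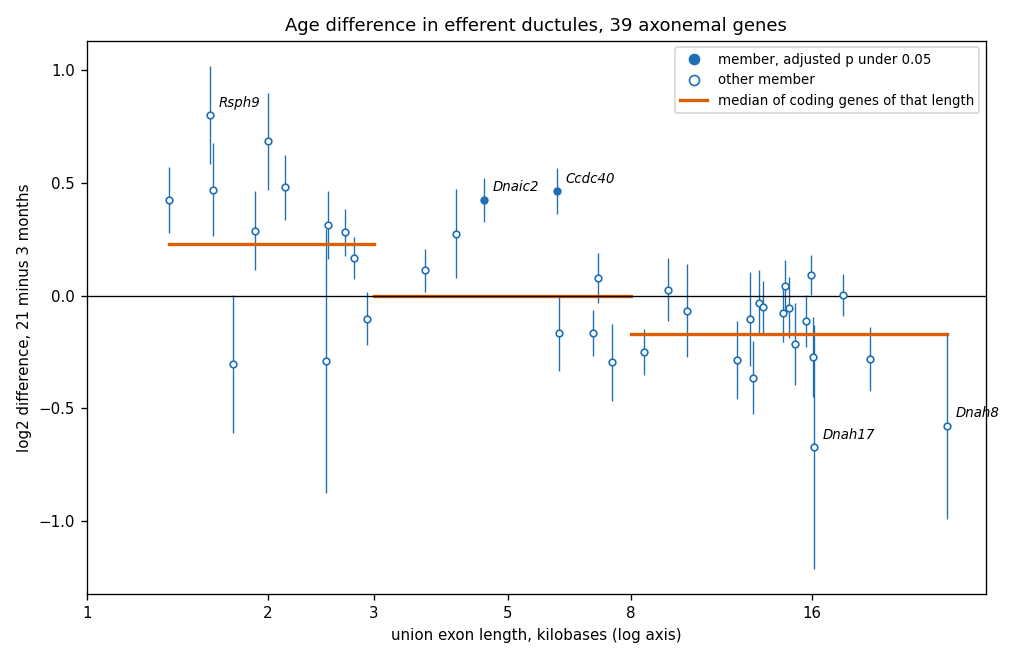
Log2 difference, 21 minus 3 months, in the efferent ductules against union exon length (log axis) for the 39 members with standard errors; filled points are Dnaic2 and Ccdc40, the members called, and the orange lines are medians of all coding genes of that length. Members under 3 kb lie mostly above 0 and those over 8 kb mostly below it, as the coding gene medians of 0.23 and -0.17 do.

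Whether the age difference differed between organs was tested over all 56 libraries. No member was called for efferent ductules minus testis, where 1.06% of 36977 genes were, or for efferent ductules minus the later ducts, where 3.38% were. At an unadjusted p under 0.05 the first comparison held Rsph9, where 13.7% of genes passed, and the second Dnah6, Dnal1, Cfap54 and Tekt3, where 16.6% did.

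In the initial segment 2 members fell with age and 1 rose, where 3.01% of genes were called lower and 3.35% higher. Dnah8 went from 17.1, 46.2, 11.3 and 14.97 CPM to 6.10, 4.30, 2.21 and 5.54 CPM (log2 difference -2.14, SE 0.38, adjusted p = 0.00440) and Dnah17 from 5.14, 9.75, 3.49 and 3.23 CPM to 1.29, 0.494, 1.60 and 2.45 CPM (-1.72, SE 0.40, adjusted p = 0.0180). Neither pair of groups overlapped, and the 3-month library 2 was the highest for both. These were the only 2 of 39 members without overlap in the initial segment, where 18.5% of all genes did not overlap. Beside them 17 of the 20 late germ-cell markers were called lower, their sum going from 75.3 to 231 CPM at 3 months to 25.0 to 59.6 CPM at 21 months, and 7 of 11 leukocyte markers were called higher. Called lower were also 4 of 12 meiotic, 2 of 8 smooth muscle, 1 of 8 adipocyte and 1 of 17 multiciliated markers. The part of these cells was not tested. Rsph9 rose from 2.21 to 2.59 CPM to 2.47 to 4.64 CPM (0.85, SE 0.22, adjusted p = 0.0319). Dnah17 was no longer called without the 3-month library 2 (-1.30, adjusted p = 0.0755) or the 21-month library 2 (-1.46, adjusted p = 0.0510), nor was Rsph9 without any of the 3-month libraries 1, 2 and 3 and the 21-month libraries 3 and 4 (0.78 to 0.91). Without the 21-month library 1, the one with a high level of the members, 6 were called lower, where 3.46% of genes were, with Dnah7a, Dnah7b, Dnah7c and Dnali1 added.

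In the caput Rsph9 and Cfap54 rose, where 3.09% of genes were called higher, and Rsph1 fell, where 5.05% were called lower. Cfap54 went from 15.6, 17.7, 33.0 and 15.03 CPM to 41.1, 39.4, 47.0 and 55.4 CPM (log2 difference 1.10, SE 0.22, adjusted p = 0.0114), with no overlap. In all, 5 members lay higher and 2 lower without overlap, where 15.6% of all genes did not overlap. In the same libraries 6 of 12 leukocyte markers were called higher, their sum going from 93.7 to 108 CPM to 136 to 161 CPM, and 7 of 8 smooth muscle markers lower, from 1149 to 1514 CPM to 827 to 967 CPM. The 8 adipocyte markers were all lower, 2 of them called, from 44.9 to 81.5 CPM to 31.7 to 49.0 CPM, and of the 20 late germ-cell markers 2 were called higher and 3 lower, from 245 to 346 CPM to 218 to 238 CPM. Of the 18 multiciliated markers 1 was called higher. Their part was not tested. Rsph9 (0.98, SE 0.25, adjusted p = 0.0310) and Rsph1 (-1.20, SE 0.29, adjusted p = 0.0246) were both no longer called when any 21-month library was left out, and Rsph9 also without the 3-month library 3 (0.84, adjusted p = 0.0776). Without the 3-month library 2, in which Gm42418 took 49.7% of counts, Rsph9 was at 0.90 (adjusted p = 0.0507) while Dnah12 was called at 0.70. In the corpus and the cauda none of the members was called by edgeR, where 2.97% and 0.128% of genes were, and 11 and 3 had an unadjusted p under 0.05, where 17.3% and 10.5% had. The study's thresholds for age, a p under 0.05 with 1.5-fold, were applied to the edgeR fit, the p being read here as unadjusted. They gave 6 members higher in the corpus, where 3.48% of genes were, and 1 in the cauda, where 3.54% were. In the corpus libraries all 8 smooth muscle markers were lower at 21 months, 1 of them called, their sum going from 625 to 954 CPM to 462 to 732 CPM, and 7 of 8 adipocyte markers were lower, 1 called, from 77.3 to 288.5 CPM to 72.1 to 119 CPM. Of 20 late germ-cell markers 18 were higher, from 549 to 706 CPM to 543 to 981 CPM, and of 12 leukocyte markers 8 were, from 247 to 354 CPM to 267 to 323 CPM, with 4 and 6 at an unadjusted p under 0.05 and none called by edgeR. Of the 13 multiciliated markers tested 1 was called lower, and of 8 absorptive-cell markers 1 higher. Gm42418 took 10.4 to 26.3% of corpus counts at 3 months and 17.0 to 36.0% at 21 months, and without it no member was called either. The part of these was not tested. The same thresholds gave 5 lower in the initial segment, where 5.45% of genes were, and 2 lower in the caput, where 8.48% were.

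The vas deferens held the most calls with age, 12 members higher, where 11.4% of 25216 genes were, and none lower, where 8.47% were. They were the heavy chains Dnah6, Dnah8, Dnah9, Dnah11 and Dnah17, the docking factor Ccdc151, the ruler and nexin-dynein genes Ccdc40 and Drc1, the central apparatus genes Hydin, Cfap46 and Cfap54, and the tether gene Cfap43. Their levels stayed low. Dnah6 went from 0.317, 0.625, 0.544 and 0.243 CPM to 2.90, 1.41, 3.66 and 1.94 CPM (log2 difference 2.45, SE 0.38, adjusted p = 0.00215), and Dnah11 from 0.687, 0.750, 1.14 and 0.827 CPM to 3.29, 1.92, 3.32 and 2.97 CPM (1.68, SE 0.26, adjusted p = 0.00216). The ages did not overlap in either gene, nor in 12 members altogether, Dnah8 being the called member that overlapped and Tekt1 the one that was separate but not called, where 24.2% of all genes were separate. Hydin went from 3.55 to 3.88 CPM to 5.42 to 8.44 CPM (0.81, SE 0.15, adjusted p = 0.00526).

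Some vas deferens calls rested on few counts, Ccdc151 on 4 at 3 months and 33 at 21 months (ratio 8.55, 95% counting interval 3.04 to 33.2) and Drc1 on 4 and 30 (7.77, 2.74 to 30.4). Leaving out a library gave 7 to 14 members, where 7.44 to 12.1% of genes were called higher, with 7 without the 3-month library 4 and 8 without the 3-month library 1 or 3 or the 21-month library 3. Dnah8, Dnah17, Ccdc40 and Cfap43 lost the call in 4 of the 8 fits and Drc1 in 3. Other cells moved in these libraries, 8 smooth muscle markers summing to 12020 to 12690 CPM at 3 months and 12990 to 21000 CPM at 21 months, the leukocyte markers to 202 to 276 CPM and 369 to 854 CPM, the late germ-cell markers to 22.0 to 218 CPM and 78.6 to 228 CPM, and the multiciliated markers to 99.0 to 113 CPM and 128 to 144 CPM. Called higher were 5 of 8 smooth muscle, 9 of 12 leukocyte, 1 of 20 late germ-cell, 1 of 11 meiotic, 2 of 7 initial segment and 2 of 8 absorptive-cell markers, and called lower 1 absorptive-cell and 1 of 8 adipocyte markers. Of the 17 multiciliated markers tested there 3 were called higher and 1 lower. Foxj1, one of the 3, went from 0.106 to 0.247 CPM to 0.303 to 3.32 CPM (log2 difference 3.46, SE 0.66, adjusted p = 0.00561). The part of other cells in these changes was not tested.

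At 21 months the division between the organs was as at 3 months. Testis was called higher than efferent ductules for 11 members, where 28.9% of 34552 genes were, and lower for 4, where 20.1% were. Against the later ducts 34 members were called higher in testis, where 30.6% of genes were, and 34 higher in efferent ductules, where 8.92% were. None was called lower in either, where 17.2% and 3.96% were. The log2 differences, testis minus efferent ductules, were 7.87 for Dnah8, 7.51 for Dnah17, 6.42 for Rsph6a and 4.64 for Dnah7a, and -5.53 for Dnah5, -4.80 for Dnah9, -6.73 for Dnah11 and -8.17 for Rsph4a. The direct call differed between the ages in 4 members, Dnah7b (1.79 and 2.03 at 3 and 21 months) and Ccdc39 (1.81 and 2.15) passing the 4-fold limit, a log2 difference of 2, at 21 months alone and Rsph9 (2.24 and 1.15) and Tekt1 (2.38 and 1.88) at 3 months alone. Rsph9 was well below the limit at 21 months. In the test of the age difference between the organs, Rsph9 was the only one of these 4 with an unadjusted p under 0.05 (0.97, SE 0.30, adjusted p = 0.0913).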

How the data were processed

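RNA-seq of 56 libraries was analysed, 4 for each of 7 regions at each of 2 ages, grouped by the tissue and age in the labels. The authors deposited raw read counts per Ensembl gene, and per the submitters' processing notes reads were trimmed with cutadapt, aligned to mm10 with HISAT2 and counted with HTSeq; versions, counting mode, strand setting and annotation release are not given in the sources used here, and the kit was stranded. Symbols came from GENCODE M21 for 53274 of 53379 genes, and the 39 members and all marker lists matched. The members and lists were chosen with earlier results of these data known. Library totals were 11125279 to 20561967 counts, and counting intervals cover counting error only.

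Genes with 10 or more counts in the libraries of a fit were tested with edgeR 4.0.16 (R 4.3.3, limma 3.58.1) (quasi-likelihood), the counts being TMM-scaled and p-values adjusted over all genes by Benjamini-Hochberg. Regions were compared within an age in a fit of its 28 libraries, called at an adjusted p under 0.05 and 4-fold, the later ducts being the log-scale mean of 5 regions. Age was tested in the 8 libraries of each region, 21 minus 3 months, at an adjusted p under 0.05, and its difference between organs over all 56. Levels were CPM scaled over the 56 libraries, per kb of union exon where genes are compared. All members were accounted for, with full values for those highest in each class and role, nearest each threshold or called with age; outside them Foxj1, Prm2 and Tnp1 were named, Dmc1 after its values were seen, and the 2 highest and 2 lowest testis minus efferent ductule differences of each further axonemal list among genes at 1 CPM or more. Few-count ratios have 95% intervals, and a floor of 3 counts. Alternatives were DESeq2 1.42.0, other scalings, filters, thresholds and fits, and leaving out each library; scripts were tested on simulated data. Regions of an age came from the same 4 mice, but no source says that a number marks a mouse. Of 42 pairs of regions, 1 (corpus with cauda at 3 months, 0.102 to 0.177) had deviations of all same-numbered libraries correlated above 0.1. Averaged over the numbers, the correlation reached 0.188, for caput with corpus at 3 months. None of 7 pairs of ages passed, but these are different mice and could not bear on shared mice. The numbers were not taken as pairing the libraries, though this limit cannot show that they do not.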

Additional observations from a re-analysis of the deposited data

Results flagged for a closer look

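Dixon's gap test at the 95% level was applied to the testis and efferent ductule libraries of each member at both ages, and 8 of 156 groups passed it, where 7.8 would be passed by chance. In 5 of the 8 the library apart was library 3 of the efferent ductules at 3 months, the one with more germ-cell RNA. Its level was 52.77 CPM for Dnah8 (next library 17.83), 24.14 CPM for Dnah17 (5.836), 205.0 CPM for Cfap43 (166.6), 640.4 CPM for Cfap44 (547.6) and 55.56 CPM for Tekt1 (43.72). The part of germ-cell RNA in these levels was not tested, and the late germ-cell markers in that library stood at a median of 1.67% of their testis mean. In testis, Dnah11 was lowest at 4.117 CPM in a 3-month library (next 4.695), Dnah3 was highest at 487.2 CPM in a 3-month library (next 393.5), and Dnah2 was lowest at 436.5 CPM in a 21-month library (next 487.1).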

How the results depend on the processing

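The region calls held in most settings and the age calls in fewer. With each library left out in turn, testis against efferent ductules at 3 months gave 11 members higher and 4 lower in every fit, and at 21 months 10 to 12 higher and 4 lower. Each organ against the later ducts gave 34 higher and 0 lower at both ages, and 30 members at 3 months and 32 at 21 months stayed above the germ-cell markers in efferent ductules. DESeq2's size factors moved the median of all genes, testis minus efferent ductules, from 0.08 to 0.49 and gave 14 higher and 4 lower, where 31.9% and 16.2% of genes were, adding Dnah7b, Dnaic1 and Ccdc39; library size alone moved it to -0.11 and gave 10 higher and 6 lower, where 27.0% and 23.1% were, adding Ccdc114 and Cfap44 to the lower and losing Rsph9. A 2-fold limit gave 21 higher and 7 lower at 3 months, where 35.6% and 28.8% of genes were, and 19 higher at 21 months, where 35.3% were. It also gave 1 lower in testis than in the later ducts at 3 months and 2 at 21 months, where 26.8% and 27.6% were.

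For age, each library was left out in turn, and the share of all genes called in the same fits stands in brackets. Members called were 0 to 1 higher in testis (0.112 to 0.355%) and 0 to 5 higher in efferent ductules (0.735 to 4.69%). In the initial segment 0 to 1 were higher (2.37 to 3.48%) and 1 to 6 lower (1.67 to 3.46%). In the caput 1 to 3 were higher (0.823 to 9.15%) and 0 to 1 lower (1.65 to 11.8%). In the corpus 0 to 1 were higher (0.812 to 2.17%) and 0 to 1 lower (0.695 to 2.45%). In the vas deferens 7 to 14 were higher (7.44 to 12.1%) and 0 to 1 lower (4.56 to 9.39%). For efferent ductules minus testis 0 to 1 were higher, beside 1.06% of genes called either way with no library left out. Library size alone gave 0 higher and 10 lower in efferent ductules, where 1.56% and 18.8% of genes were, 1 higher and 0 lower in the caput (1.43% and 2.09%), and 3 lower for efferent ductules minus later ducts (7.64%). DESeq2 gave 6 higher in efferent ductules (8.14%) and 1 higher and 1 lower in the corpus (2.54% and 2.30%). Without a filter there were 1 higher and 1 lower in testis (0.723% and 0.510%) and in the corpus (2.21% and 2.62%). Efferent ductules minus testis gave 1 higher, Rsph9, with DESeq2's size factors, with filterByExpr and with DESeq2, where 0.792, 1.42 and 2.09% of genes were. A single fit of 56 libraries gave 1 higher in efferent ductules (2.95%) and 0 higher in the initial segment (1.22%). The study's thresholds, a p under 0.05, read here as unadjusted, and 1.5-fold, were applied to the edgeR fit. They gave 5 lower in the initial segment, 2 lower in the caput, 6 higher in the corpus and 1 higher in the cauda. Without the 21-month efferent ductule libraries 1 and 4, an alternative chosen after seeing the data, there were 4 higher and 10 lower (15.1% and 12.9%), and Dnah1 turned from -0.03 to 0.21 (adjusted p = 0.0313). Leaving out Gm42418, also chosen after seeing the data, changed no count in the efferent ductules, caput or corpus.

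The replicate numbers are not known to mark shared mice. With the number as a replicate block, the counts were 0 higher in efferent ductules (1.53% of genes), 1 lower in the initial segment (2.33%), and 1 higher and 1 lower in the corpus (2.42% and 2.51%), and no other count moved by over 1.5 times; the cause of these changes was not tested. Members at a few counts, as in the vas deferens, are limited by depth, and small differences in efferent ductules with age are limited by the scaling.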
